A study of Arabidopsis thaliana with 48 samples.

Results

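The genome of the chloroplast is small, and its genes carry identifiers that start with ATCG. Of the 32678 gene rows of the deposited count tables, 133 had such an identifier, and the 81 with more than 100 counts summed over the 48 libraries are described here. The other 52 rows held 602 counts in all, 0.0237% of the counts on chloroplast rows, and 24 of them were at 0 in every library. Reads without a unique alignment were not counted on any gene. A row at 0 therefore does not show that its gene was silent, and the chloroplast shares below leave such reads out. How far this explains the rows at 0 was not tested. The threshold fell between ATCG00210 with 108 counts and ATCG00610 with 111 on the inside, and ATCG00250 with 100, ATCG00050 with 99 and ATCG00410 with 90 on the outside.

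Transcripts were counted in shoots and roots of 5-week-old Arabidopsis thaliana plants grown in FlowPots, a gnotobiotic peat system, and harvested in the morning. Plants were either left germ-free (-BFO) or inoculated with a synthetic community of root-derived bacteria, fungi and oomycetes (+BFO), and grew either under the control light condition (NC) or under low photosynthetically active radiation (LP, the condition the labels call shade). Both lines carry a disrupted native MYC2, a gene for a transcription factor of jasmonate signalling: myc2-3 is the mutant, and MYC2-FLAG is the jin1-8 mutant complemented with a MYC2-FLAG fusion under the native MYC2 promoter. Tissue, line, light and BFO together gave 16 conditions with 3 replicates each. The labels name 1 complemented line, wild-type plants were not analysed here, and how many plants went into a library is not given in the sources used here, so p-values measure the spread between these libraries.

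Chloroplasts keep a circular genome inherited from a cyanobacterial ancestor, which encodes subunits of the photosystems, of the cytochrome complex, of the ATP synthase and of the NADH dehydrogenase-like complex, the large subunit of Rubisco, part of the plastid ribosome and RNA polymerase, and a few other proteins. Its genes are read in groups by a plastid-encoded polymerase, which needs sigma factors made in the nucleus, and by nuclear-encoded polymerases of the phage type, and the transcripts are then cut, trimmed and stabilised by nuclear-encoded RNA-binding proteins. Roots contain non-green plastids with the same genome, whose photosynthesis genes are known to be weakly expressed. The deposited tables give identifiers only, and the reference annotation used here pairs no names with them. Through its notes on related nuclear genes it names 5 of the 81: ATCG00660, the ribosomal protein L20 of the large subunit; ATCG00750, the ribosomal protein S11 of the small subunit; ATCG00670, ClpP, the proteolytic subunit of the plastid Clp protease; ATCG00530, a CemA-like protein of the envelope linked to proton extrusion; and ATCG00430, annotated as photosystem II reaction center protein G, a name given before the product was recognised as a subunit of the NADH dehydrogenase-like complex. The other members are given by identifier. Identifiers were numbered along the genome, so neighbours in number are neighbours on the chloroplast chromosome.

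Gene counts ran from 5162823 to 11045467 per library, and no pair of replicates agreed within sampling noise (chi-square per degree of freedom 2.73 to 23.1 over 48 pairs). MYC2 itself was lower in myc2-3 in all 8 genotype comparisons, with log2 fold changes between -4.92 and -2.16, which checks the genotype labels. The leaf markers RBCS1A, LHCB1.1, LHCB1.3, LHCB2.1, CA1 and RCA together took 3.73% to 8.31% of the counts in shoots and 0.00977% to 0.0980% in roots. Genotype and sequencing project coincided, so the line and the project cannot be told apart. The study's methods also state that a latent virus gave most of the reads in a large part of the myc2-3 samples, without naming them, and this too cannot be told apart from the line. From how the myc2-3 samples clustered, the authors judged that the virus had no significant effect on the transcriptome. By the same methods the lines were sequenced to unlike total depths. By the likeness of their condition means, the BFO labels matched between the lines in part of the shoot conditions and in no root condition. When the mean of each condition over 20983 genes outside the organelles was centred within tissue and line, every root condition correlated negatively with the same label in the other line (r between -0.76 and -0.50) and best with a condition of the opposite BFO label (r between 0.58 and 0.77). In shoots, MYC2-FLAG under LP +BFO was most like myc2-3 under NC -BFO (r = 0.82) and unlike myc2-3 under the same label (r = -0.67), and NC -BFO correlated negatively with its own label (r = -0.33). LP -BFO matched its own label best in both lines (r = 0.70), and NC +BFO correlated with its own label at r = 0.60, with best matches of r = 0.64 and 0.61 under other labels. These correlations are across genes and are a description only. All conditions are given below as labelled, and a difference between the lines under 1 label is a difference between libraries with that label.

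The 81 members took 1.32% ± 0.532 (SD, n = 24) of the gene counts in shoots, with a range from 0.612% to 3.06%, and 0.0884% ± 0.0119 (SD, n = 24) in roots, with a range from 0.0623% to 0.115%. The lowest shoot library thus lay above the highest root library. Mean shares were between 9.52 times and 25.9 times as high in shoots as in roots of the same line, light and BFO label. Less chloroplast RNA per cell, fewer plastids and fewer green cells in a sample cannot be told apart in bulk tissue. The counting error of a single share was small, with 95% Wilson bounds at 0.606% and 0.618% in the shoot library with the lowest share, and the spread between replicates was larger than this in every condition except myc2-3 roots under LP +BFO.

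In shoots of MYC2-FLAG, the share was 0.873%, 0.727% and 1.19% under NC -BFO, 1.03%, 0.799% and 0.895% under NC +BFO, 1.40%, 1.5% and 1.35% under LP -BFO, and 0.612%, 1.08% and 0.926% under LP +BFO. The 3 libraries under LP -BFO lay above all 3 under NC -BFO, with a ratio of means of 1.53, and above all 3 under LP +BFO, where the mean was 0.616 times as high. The libraries of the other MYC2-FLAG comparisons overlapped. In shoots of myc2-3, it was 1.17%, 1.21% and 1.27% under NC -BFO, 1.12%, 1.58% and 1.01% under NC +BFO, 1.79%, 1.49% and 2.17% under LP -BFO, and 1.66%, 3.06% and 1.85% under LP +BFO. In this line the LP libraries lay above the NC libraries both without BFO (ratio of means 1.49) and with BFO (1.77), and the +BFO and -BFO libraries overlapped under both lights. Under LP +BFO the share was 2.52 times as high in myc2-3 as in MYC2-FLAG, with no overlap, whereas the libraries of the lines overlapped in the other 3 shoot conditions, where the ratios lay between 1.28 and 1.37.

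**Figure D1:**
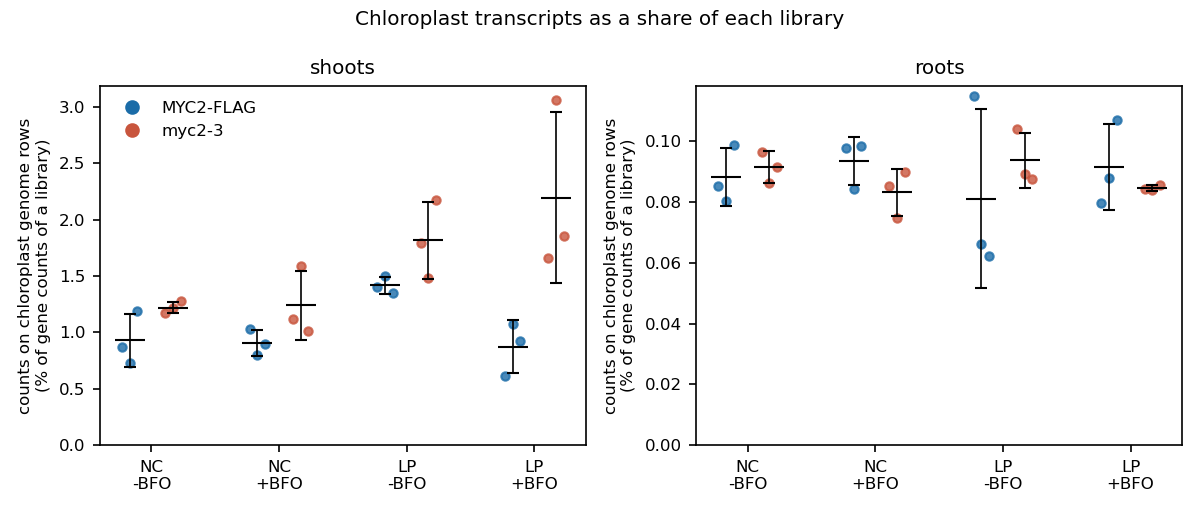
Share of gene counts (%) on the 81 chloroplast genes in each library, for shoots (left) and roots (right, on its own scale); points are libraries, bars are the mean and SD of 3, and colours are the lines. Shoots of myc2-3 under LP +BFO have the highest libraries, up to 3.06%, and all root libraries lie at or below 0.115%.

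Replicate 2 of myc2-3 shoots under LP +BFO stood apart, with a share of 3.06% beside 1.66% and 1.85% in its replicates. In the same library 5.23% of the counted reads had more than 1 alignment, against 2.67% and 3.33% in its replicates and 1.46% to 2.30% in the other shoot libraries, and mitochondrial genes took 0.0651% of the counts, against 0.0403% and 0.0453%. The part of these in the share was not tested. Over the 48 libraries, most counts on mitochondrial rows lay on ATMG00020 (610857 counts) and ATMG01390 (107650), and no other such row had more than 3076. The mitochondrial share, here and below, thus mostly reflects these rows and not mitochondrial genes at large. Without this library the mean over shoots was 1.25%, and the results that rest on it are given below with and without it.

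In roots, condition means lay between 0.0812% and 0.0937%. Replicates spread most under LP -BFO in MYC2-FLAG, with 0.115%, 0.0662% and 0.0623%, and least under LP +BFO in myc2-3, with 0.0843%, 0.0840% and 0.0856%. Among the root comparisons, the libraries did not overlap only for myc2-3 under LP, where the share with BFO was 0.903 times that without, although the counting intervals of the nearest libraries overlapped (upper bound 0.0877% with BFO, lower bound 0.0859% without).

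A few members held most of these counts. The 10 with the most counts took 84.5% of all chloroplast counts, 82.5% to 88.1% in shoots and 67.5% to 77.5% in roots. These are shares of counts and not levels per length, since gene lengths were not used here. ATCG00470 had 622266 counts and ATCG00480, its neighbour, 575987, which came to 25.7% and 23.2% of the chloroplast counts in shoots but 8.11% and 15.1% in roots. The order differed in roots, where ATCG01130 came first with 20.02% (7.22% in shoots), and where ATCG00790 had 11.9% (4.86% in shoots). ATCG00430, the NADH dehydrogenase-like subunit, went the other way, with 4.60% in shoots and 0.445% in roots. Of the 81 members, 43 were detected in all 48 libraries and 76 in all 24 shoot libraries, and between 79 and 81 were detected per shoot library and between 61 and 74 per root library.

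A set of members with neighbouring identifiers took a larger part of the chloroplast counts in roots than in shoots. The 9 members from ATCG00740 to ATCG00820, a run that holds ribosomal protein S11 and was chosen after its values were seen, took 14.1% ± 2.17 (SD, n = 24) of the chloroplast counts in shoots and 44.4% ± 6.0 (SD, n = 24) in roots, with no overlap between tissues (10.9% to 19.6% against 29.4% to 51.7%). Of the root conditions, MYC2-FLAG under LP -BFO had the lowest values of the run, at 33.0%, 32.9% and 29.4%, below every other root library, and myc2-3 under LP +BFO came next among the condition means, at 39.7%, 41.4% and 40.1%. In shoots the highest values were those of MYC2-FLAG under LP -BFO, at 19.6%, 19.3% and 16.9%.

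**Figure D2:**
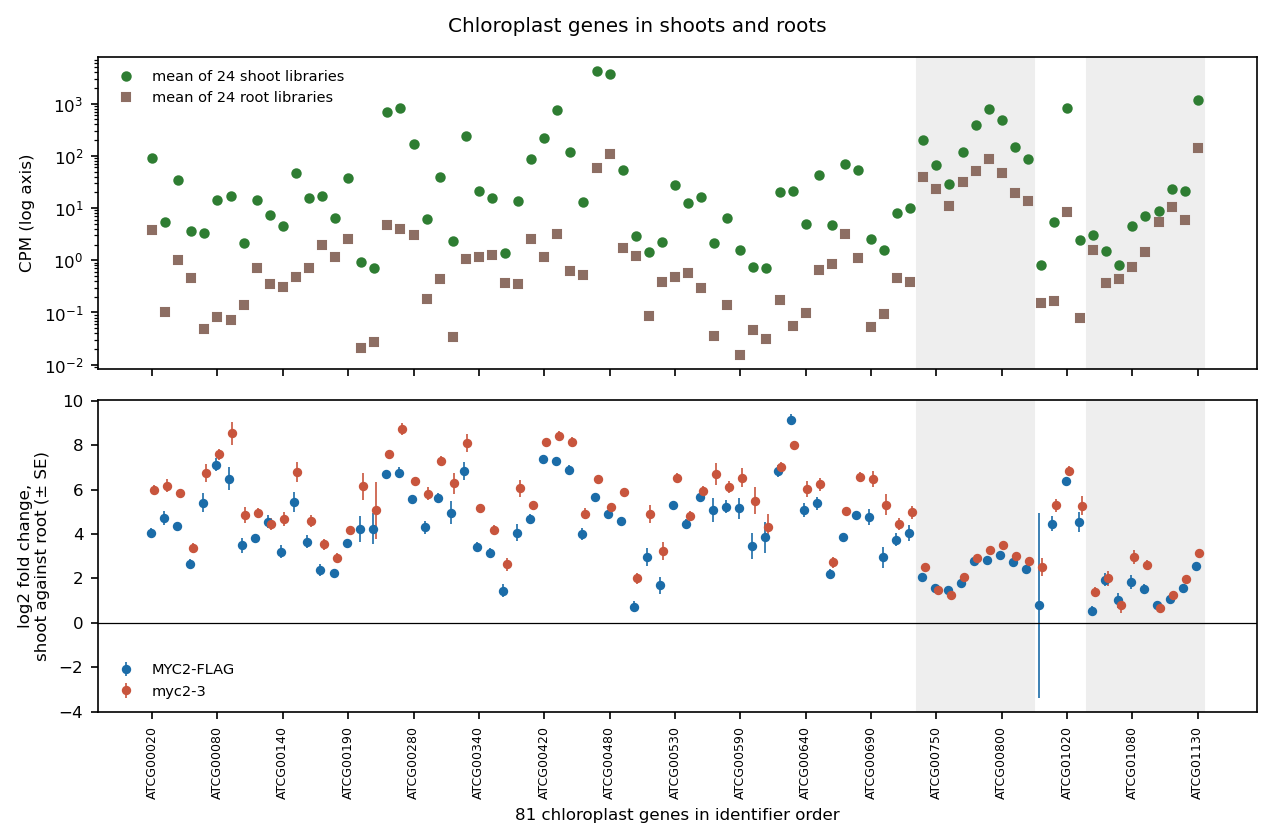
Chloroplast genes in identifier order. Top, mean TMM-normalised counts (CPM, log axis) over 24 shoot and 24 root libraries; bottom, log2 fold change of shoots against roots with its SE for each line. The shaded runs, ATCG00740 to ATCG00820 and ATCG01050 to ATCG01130, have smaller fold changes than most other members, and no member is below 0. These runs were chosen after their values were seen.

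Shoots were compared with roots in each line with edgeR's quasi-likelihood test, and a gene was called where its log2 fold change was at least 1 in either direction with an adjusted p under 0.05 over 21098 genes. All 81 members passed the filter on low counts, since it equals the rule that chose them. That rule sums both tissues, so some members passed through their shoot counts, as ATCG00200 did with 136 in shoots and 6 in roots. It thus favours calls higher in shoots among members with few root counts. The counts called and medians below are a description under that rule. In MYC2-FLAG 77 of 81 members were called higher in shoots (21.4% of all genes were) and none lower, with a median log2 fold change of 4.05 over the members and -0.14 over all genes. In myc2-3 it was 79 of 81 (22.8% of all genes) and none lower, with a median of 5.06 and of -0.12 over all genes. In that line ATCG00200 and ATCG00210 were at 0 in all 12 root libraries, which sets their folds at at least 35.6 and at least 27.0 (floor of 3 counts over the group, counting error only), and the median with both at that bound was 5.03. In a single root condition, up to 8 members in myc2-3 and up to 10 in MYC2-FLAG were at 0 in all 3 libraries. Apart from ATCG00200 and ATCG00210 in myc2-3, folds of such members were not bounded, and they enter the medians here and below.

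Fold changes were also read along the order of the identifiers, in runs chosen after their values were seen. The contrast between these runs and the other members is thus a description only. Over the 9 members of the run ATCG00740 to ATCG00820 the median log2 fold change was 2.42 in MYC2-FLAG and 2.76 in myc2-3, over the 9 members from ATCG01050 to ATCG01130, a second run chosen after its values were seen, it was 1.51 and 1.99, and over the other 63 members 4.55 and 5.84. The 2 members not called in myc2-3 were ATCG01100, with a log2 fold change of 0.66 ± 0.16 (SE), and ATCG01070, with 0.79 ± 0.34, both in the second run. In MYC2-FLAG ATCG01100 was again not called, at 0.78 ± 0.16, as were ATCG01050, ATCG00500 and ATCG01000, the last with an SE of 4.15. At the other end stood ATCG00270, with 501 to 2329.9 CPM (counts relative to the TMM-normalised library size) in myc2-3 shoots and 1.45 to 4.66 CPM in myc2-3 roots, a log2 fold change of 8.75 ± 0.27.

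The members with the most counts followed the same order of tissues with different folds. ATCG00470 stood at 44.5 to 120 CPM in roots and at 1705 to 11531 CPM in shoots, and rose by 5.67 ± 0.16 in MYC2-FLAG and 6.46 ± 0.17 in myc2-3 on the log2 scale. ATCG00480 stood at 79.7 to 173 CPM in roots and 2200.4 to 5937 CPM in shoots, and rose by 4.90 ± 0.11 and 5.21 ± 0.11. Among root conditions both had their highest mean in MYC2-FLAG under LP -BFO, at 84.2 ± 30.7 CPM (SD, n = 3) and 142 ± 26.4 CPM (SD, n = 3). ATCG01130, the first in roots by counts, ranged there from 73.3 to 189 CPM and in shoots from 397 to 4171 CPM, and its highest and lowest root libraries were both of MYC2-FLAG. ATCG01020 and ATCG00220, which are near the top in shoots, stood at 3.69 to 15.0 CPM and 2.17 to 9.88 CPM in roots. Whether a fold between tissues differed between the lines was not tested.

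The 5 members with a name covered this range. Ribosomal protein S11 (ATCG00750) had 11.1 to 31.2 CPM in roots and 43.0 to 114 CPM in shoots, and rose by 1.58 ± 0.10 in MYC2-FLAG and 1.48 ± 0.10 in myc2-3 on the log2 scale. The other ribosomal protein, L20 (ATCG00660), had log2 fold changes of 2.19 ± 0.22 and 2.73 ± 0.24 at low levels, 0.256 to 1.60 CPM in roots and 2.42 to 12.7 CPM in shoots. ClpP (ATCG00670) stood at 1.62 to 6.49 CPM in roots and 29.6 to 159 CPM in shoots, with 3.87 ± 0.15 and 5.03 ± 0.16. Those of the CemA-like protein (ATCG00530) were larger, 5.30 ± 0.20 and 6.53 ± 0.21, and those of ATCG00430, 7.28 ± 0.20 and 8.43 ± 0.21, the largest of the 5. The genes for the translation machinery and for the protease thus changed less between tissues than the NADH dehydrogenase-like subunit, as values side by side and with no test between genes.

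Nuclear genes for photosystem subunits, light-harvesting proteins and the Rubisco small subunit gave 43 of 43 higher in shoots in both lines, with medians of 7.78 and 8.41 (21.4% and 22.8% of all genes were higher, 24.4% and 25.3% lower). The 34 mitochondrial genes tested had medians of -0.46 and 0.10, with 2 higher and 6 lower in MYC2-FLAG and 6 higher and 2 lower in myc2-3.

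Low light was compared with control light in shoots of each line, without and with BFO. The clearest change was in myc2-3 with BFO, where 40 of 81 members were called higher under LP (4.49% of all genes were) and 2 lower (3.1%), with a median log2 fold change of 1.04 over the members and 0.00 over all genes. Without replicate 2 of myc2-3 shoots under LP +BFO, 14 were higher and 2 lower (the share of all genes in that refit is not given here). Of the 80 members then tested (ATCG00210 dropped under the filter), 67 had a positive log2 fold change, against 69 with all libraries. Members come from the same libraries and can share precursor transcripts, so these signs are no independent measurements. The largest rise among members with a mean count of at least 50 was that of ATCG00150, at 44.5, 398 and 73.0 CPM under LP +BFO and 16.1, 30.0 and 16.3 CPM under NC +BFO. All 3 LP libraries lay above the NC libraries, but replicate 2 was far above the rest, and the log2 fold change of 3.06 ± 0.54 (adjusted p = 4.04e-05) became 1.53 without it (adjusted p = 0.0126).

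ATCG00090 followed, at 20.6, 129 and 23.4 CPM against 7.64, 10.9 and 6.71 CPM, with 2.75 ± 0.44 and 1.42 without replicate 2. ATCG00160 came next, at 20.2, 79.6 and 30.6 CPM against 6.79, 8.68 and 6.88 CPM, with 2.52 ± 0.38 and 1.79 without replicate 2. Both remained past the thresholds without that library. Among the members with the most counts ATCG01130 rose by 1.77 ± 0.31, ATCG01020 by 1.07 ± 0.29 and ATCG00220 by 1.05 ± 0.25 with all libraries, ATCG00470 had 0.87 ± 0.26 and ATCG00480 had -0.71 ± 0.18. The 2 falls were steadier. ATCG00280 went from 188, 225 and 167 CPM under NC +BFO to 102, 42.3 and 72.0 CPM under LP +BFO, a log2 fold change of -1.41 ± 0.22 (adjusted p = 5.16e-06) that was -1.16 without replicate 2. ATCG00180 had -1.33 ± 0.32, and -1.32 without it. Of the named members, ClpP rose by 1.05 ± 0.24 and ATCG00430 by 1.06 ± 0.28, neither of which was called without replicate 2 (0.69 and 0.38). Values for S11 were -0.12 ± 0.19 and for L20 0.73 ± 0.37, and neither was called.

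**Figure D3:**
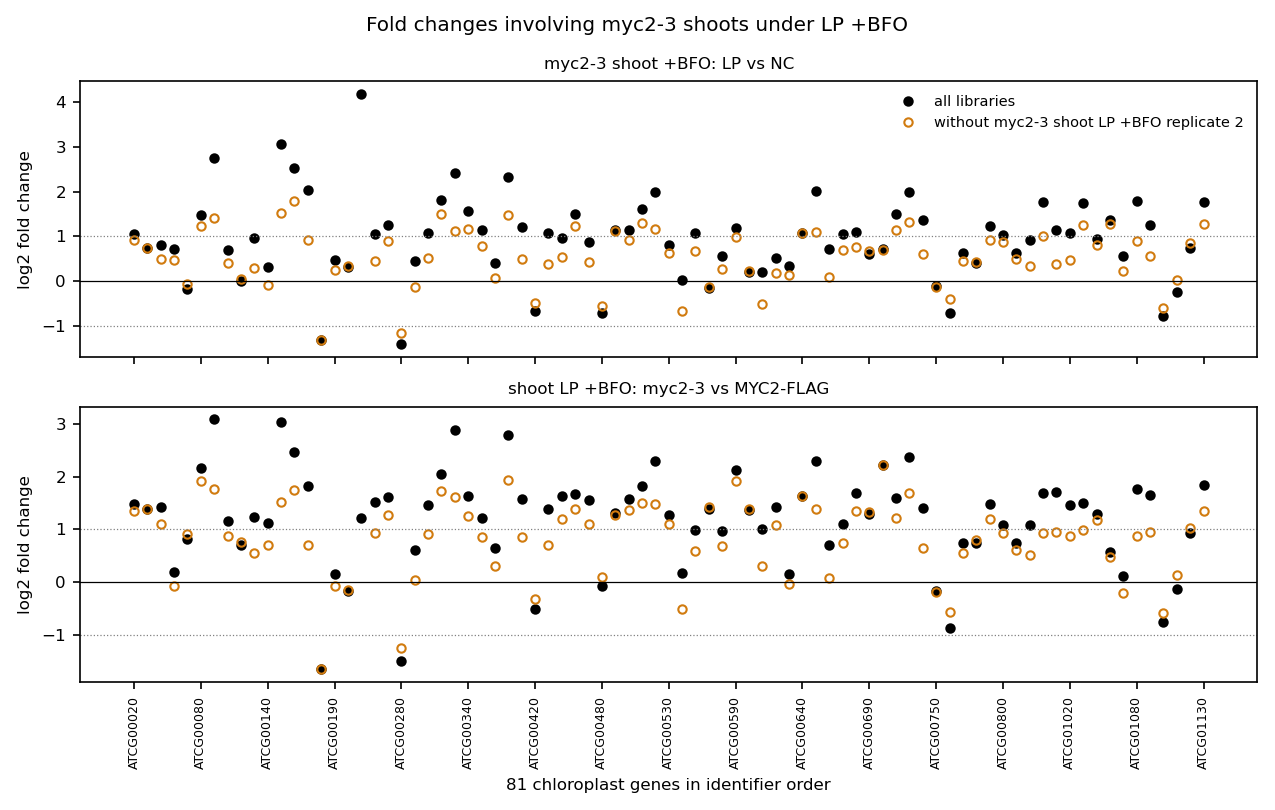
Log2 fold change of each chloroplast gene in identifier order, for LP against NC in myc2-3 shoots with BFO (top) and for myc2-3 against MYC2-FLAG in shoots under LP +BFO (bottom); filled points use all libraries, open points leave out replicate 2 of myc2-3 shoots under LP +BFO, and dotted lines mark the fold threshold. Members called higher number 40 and 52 with all libraries and 14 and 34 without that one.

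In the other 3 shoot comparisons of light few members were called. In MYC2-FLAG without BFO 5 members rose (10.9% of all genes did) and none fell, with a median of 0.41. ATCG00790 had 1083, 1199 and 974 CPM under LP and 478, 374 and 623 CPM under NC, all 3 above, with a log2 fold change of 1.14 ± 0.24. ATCG01120 and ATCG01090 rose by 1.12 ± 0.21 and 1.17 ± 0.38, and the other 2 called, ATCG00770 and ATCG00780, lie next to ATCG00790. The most counted members were not called, with 0.68 ± 0.26 for ATCG00470, 0.44 ± 0.18 for ATCG00480 and 0.82 ± 0.30 for ATCG01130. All 9 members of the run ATCG00740 to ATCG00820 had positive values, between 0.64 and 1.14. The count was 2 without LP -BFO replicate 1 or NC -BFO replicate 2 and 23 without NC -BFO replicate 3, which had the highest share of its condition. In MYC2-FLAG with BFO 2 rose (10.4% of all genes) and none fell: ATCG00180 by 1.14 ± 0.27, and ATCG01000, which was at 0 in all 3 NC +BFO libraries, so that no fold is given. That count became 5 without LP +BFO replicate 1 and 1 without LP +BFO replicate 2 or NC +BFO replicate 3. In myc2-3 without BFO 1 rose and 1 fell (7.19% of all genes changed). ATCG00640 rose by 1.26 ± 0.34, and ATCG00180 fell from 10.5, 14.2 and 12.6 CPM under NC to 3.91, 6.15 and 3.10 CPM under LP, a log2 fold change of -1.46 ± 0.26 with adjusted p = 3.63e-05. The count of 2 became 4 without NC -BFO replicate 2 or 3 and 7 without LP -BFO replicate 2.

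ATCG00180 thus rose under LP with BFO in MYC2-FLAG and fell under LP in both myc2-3 comparisons. Tested as a difference between the lines, averaged over BFO, its light response was 1.88 ± 0.28 lower in myc2-3 on the log2 scale (adjusted p = 4.69e-07). The same test called 14 of 81 members (18.2% of all genes), 11 with a higher and 3 with a lower value in myc2-3, and ATCG00280 was among the lower, with -1.26 ± 0.21. Without myc2-3 LP +BFO replicate 2 that count was 6, without MYC2-FLAG NC -BFO replicate 3 it was 7, and without MYC2-FLAG NC +BFO replicate 1 or myc2-3 LP -BFO replicate 3 it was 9. Since part of the shoot labels do not match between the lines, as described above, this test compares labels only.

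Whether the light response differed with BFO was tested within each line. In myc2-3 shoots 16 members were called (6.72% of all genes), 15 with a higher response with BFO and 1, ATCG00480, with a lower one of -1.19 ± 0.26 (adjusted p = 0.00118). Without replicate 2 of LP +BFO it was 6, and it was 8 or 9 without NC -BFO replicate 1, NC +BFO replicate 1 or 3, or LP -BFO replicate 2. In MYC2-FLAG shoots 6 were called (17.5% of all genes), 4 with a higher and 2 with a lower response, among them ATCG00280 with 1.29 ± 0.30 and ATCG00790 with -1.06 ± 0.34.

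The neighbours ATCG00470 and ATCG00480, which had the most counts of any members, came apart in 1 condition. The ratio of their counts was between 0.629 and 1.38 in the 21 other shoot libraries and 1.49, 5.24 and 1.95 in myc2-3 under LP +BFO, and between 0.449 and 0.691 in roots. ATCG00480 stood at 3399.9, 2200.4 and 3035 CPM under LP +BFO in myc2-3, below the 4212, 5937 and 4012 CPM under NC +BFO and the 4620.5, 5265 and 5337 CPM under LP -BFO. ATCG00470, by contrast, stood at 5058, 11531 and 5920 CPM, where LP -BFO had 6103, 5060.2 and 7355 CPM. With replicate 2 left out, ATCG00480 under LP +BFO had a log2 fold change of -0.66 against LP -BFO (adjusted p = 0.0138) and ATCG00470 one of -0.17 (adjusted p = 0.720). These 2 were chosen because they had the most counts.

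**Figure D4:**
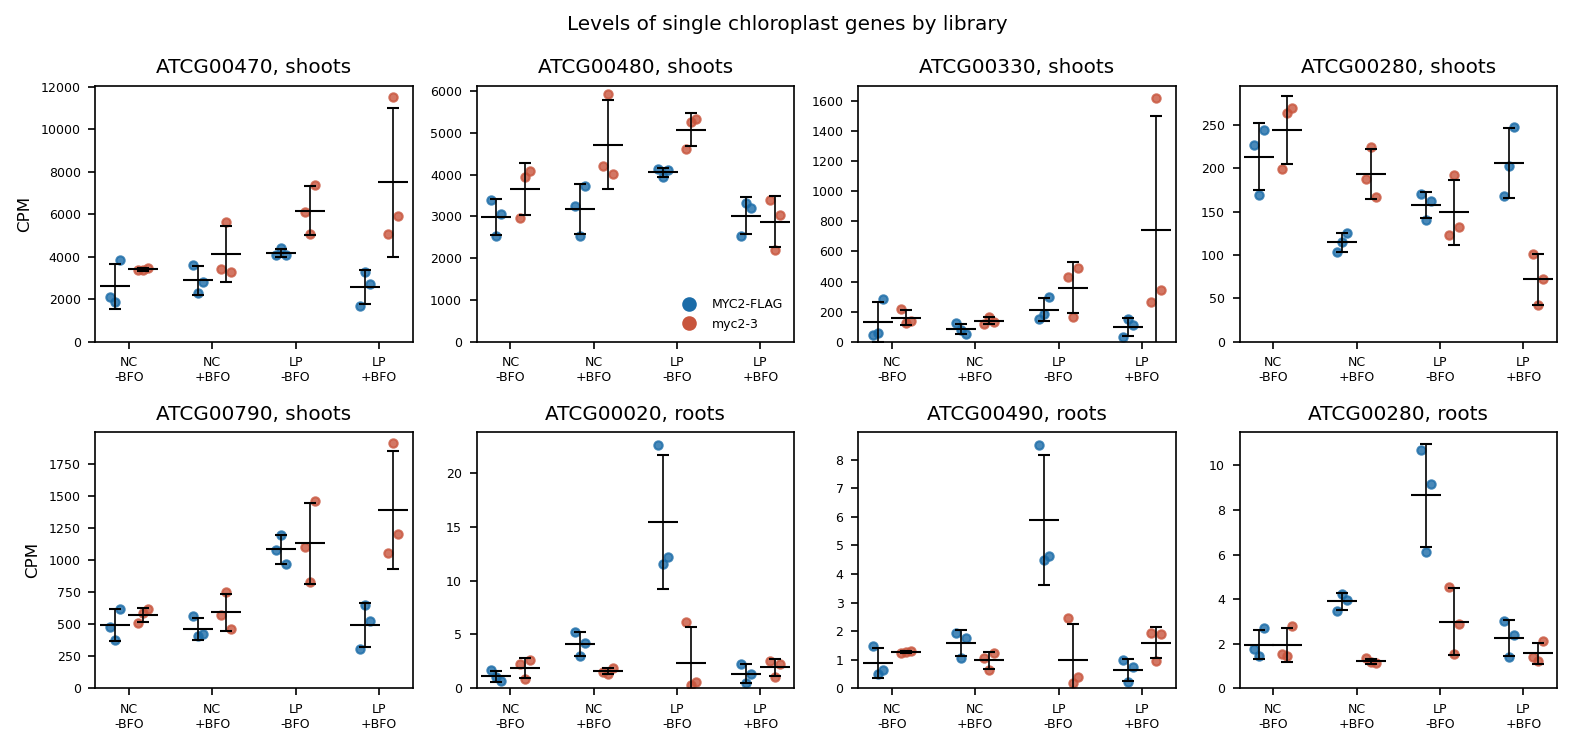
CPM of single chloroplast genes in each library, in 5 panels for shoots and 3 for roots, each on its own scale from 0; points are libraries, bars the mean and SD of 3, colours the lines. In myc2-3 shoots under LP +BFO, ATCG00480 and ATCG00280 are low while ATCG00470 and ATCG00330 are high in replicate 2, and in roots ATCG00020, ATCG00490 and ATCG00280 are highest in MYC2-FLAG under LP -BFO.

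Plants with BFO were compared with germ-free plants of the same line and light. In MYC2-FLAG shoots under LP 5 members fell with BFO (4.16% of all genes did) and none rose, with a median of -0.54. ATCG00790, at 308, 648 and 529 CPM with BFO and 1083, 1199 and 974 CPM without, did not overlap and had a log2 fold change of -1.13 ± 0.24 (adjusted p = 0.000356). ATCG01120 had -1.12 ± 0.22, and ATCG00770, ATCG00780 and ATCG00640 were the others. The LP -BFO libraries are the same ones as in the light comparison, so both results share them. No member was called without LP +BFO replicate 1, the library with the lowest shoot share, and 15 were called without LP +BFO replicate 2. In MYC2-FLAG shoots under NC 2 members fell (2.98% of all genes) and none rose, ATCG00290 by 1.11 on the log2 scale and ATCG01000, at 0 in all 3 libraries with BFO. The count was 1 without NC -BFO replicate 3 or NC +BFO replicate 3.

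In myc2-3 shoots under NC 5 members fell with BFO (5.62% of all genes) and none rose. ATCG00020 had 67.8, 95.4 and 68.3 CPM with BFO and 194, 132 and 184 CPM without, with no overlap and a log2 fold change of -1.15 ± 0.30, and ATCG00490 had -1.03 ± 0.25. The count was 2 without NC -BFO replicate 1, 3 without NC +BFO replicate 1 or 3, and 8 without NC +BFO replicate 2. In myc2-3 shoots under LP 2 rose and 1 fell (7.39% of all genes changed). The rises, of ATCG00150 by 1.68 ± 0.49 and of ATCG00090 by 1.3 ± 0.39, rested on replicate 2: without it they were 0.16 and -0.03, and no member was called, nor was any without LP -BFO replicate 2. The count was 5 without LP -BFO replicate 3, 15 without LP +BFO replicate 1 and 12 without LP +BFO replicate 3. ATCG00280 fell by 1.04 on the log2 scale with all libraries. The BFO response averaged over light differed between the lines in shoots for 3 members, all higher in myc2-3 (9.5% of all genes were called), led by ATCG01090 with 1.23 ± 0.39 among those without a condition at 0.

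The lines were compared in shoots under each light and BFO label. Under LP +BFO and NC -BFO each line correlated negatively with the same label in the other line (r = -0.67 and -0.33), as described above. Values under these labels compare labels only. Under LP +BFO 52 of 81 members were called higher in myc2-3 (9.91% of all genes were) and 2 lower (9.39%), with a median log2 fold change of 1.39 over the members and 0.03 over all genes. Without replicate 2 of myc2-3, 34 were higher and 2 lower (the share of all genes in that refit is not given here). Of 80 members 68 then had a positive value, again not as independent measurements. ATCG00090 had 20.6, 129 and 23.4 CPM in myc2-3 and 2.92, 9.49 and 6.81 CPM in MYC2-FLAG, with no overlap and a log2 fold change of 3.10 ± 0.45 (adjusted p = 9.42e-08), or 1.76 without replicate 2. ATCG00150 had 3.05 ± 0.54, or 1.52 without it. ATCG00330 had 264, 1617 and 345 CPM against 32.1, 152 and 113 CPM, with 2.90 ± 0.53, or 1.61 without it. The members lower in myc2-3 were again ATCG00280, at 102, 42.3 and 72.0 CPM against 168, 203 and 247 CPM (-1.51 ± 0.22, adjusted p = 2.75e-07), and ATCG00180 (-1.66 ± 0.30).

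Of the named members in this comparison, ATCG00430 had 845, 2436 and 883 CPM in myc2-3 and 376, 627 and 580 CPM in MYC2-FLAG, with 1.39 ± 0.29. The CemA-like protein rose by 1.27 ± 0.24 and ClpP by 1.1 ± 0.24, and the ribosomal proteins were not called, with 0.71 ± 0.36 for L20 and -0.17 ± 0.19 for S11. Without replicate 2 only the CemA-like protein of these 5 was still called, at 1.1. ATCG00470 was 1.55 higher with all libraries and 1.1 higher without replicate 2, and ATCG00480 had -0.07 and 0.09.

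Other lists were read in the same comparison, in which 9.91% of all genes were higher and 9.39% lower in myc2-3. Of 43 nuclear photosynthesis genes 6 were lower and none higher (14% lower, median -0.61), and of 34 mitochondrial genes 11 were higher and none lower (32.4% higher, median 1.02). The mitochondrial share of the counts was 0.0403%, 0.0651% and 0.0453% in myc2-3 and 0.0162%, 0.0191% and 0.0178% in MYC2-FLAG, and reads with more than 1 alignment came to 2.67%, 5.23% and 3.33% against 1.5%, 1.85% and 1.63%. Their part in the rise of the chloroplast transcripts was not tested. The mitochondrial share came mostly from ATMG00020 and ATMG01390, as described above.

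Under the other shoot labels the lines differed in fewer members, all of them higher in myc2-3. There were 7 under NC -BFO (8.06% of all genes were higher), 3 under NC +BFO (2.49%) and 6 under LP -BFO (1.63%), and medians were 0.52, 0.44 and 0.50. Under NC -BFO ATCG00020 had 194, 132 and 184 CPM against 40.2, 43.8 and 96.4 CPM, and rose by 1.5 ± 0.31, and ATCG00490 by 1.44 ± 0.25. Under LP -BFO the largest rises were those of ATCG00560, by 1.45 ± 0.50, and ATCG00080, by 1.44 ± 0.24. Under NC -BFO the count was 22 without MYC2-FLAG replicate 3. Under NC +BFO it was 0 without MYC2-FLAG replicate 2 or 3 or myc2-3 replicate 2 and 1 without myc2-3 replicate 1, and 1 of the 3 was ATCG01000, at 0 in MYC2-FLAG.

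**Figure D5:**
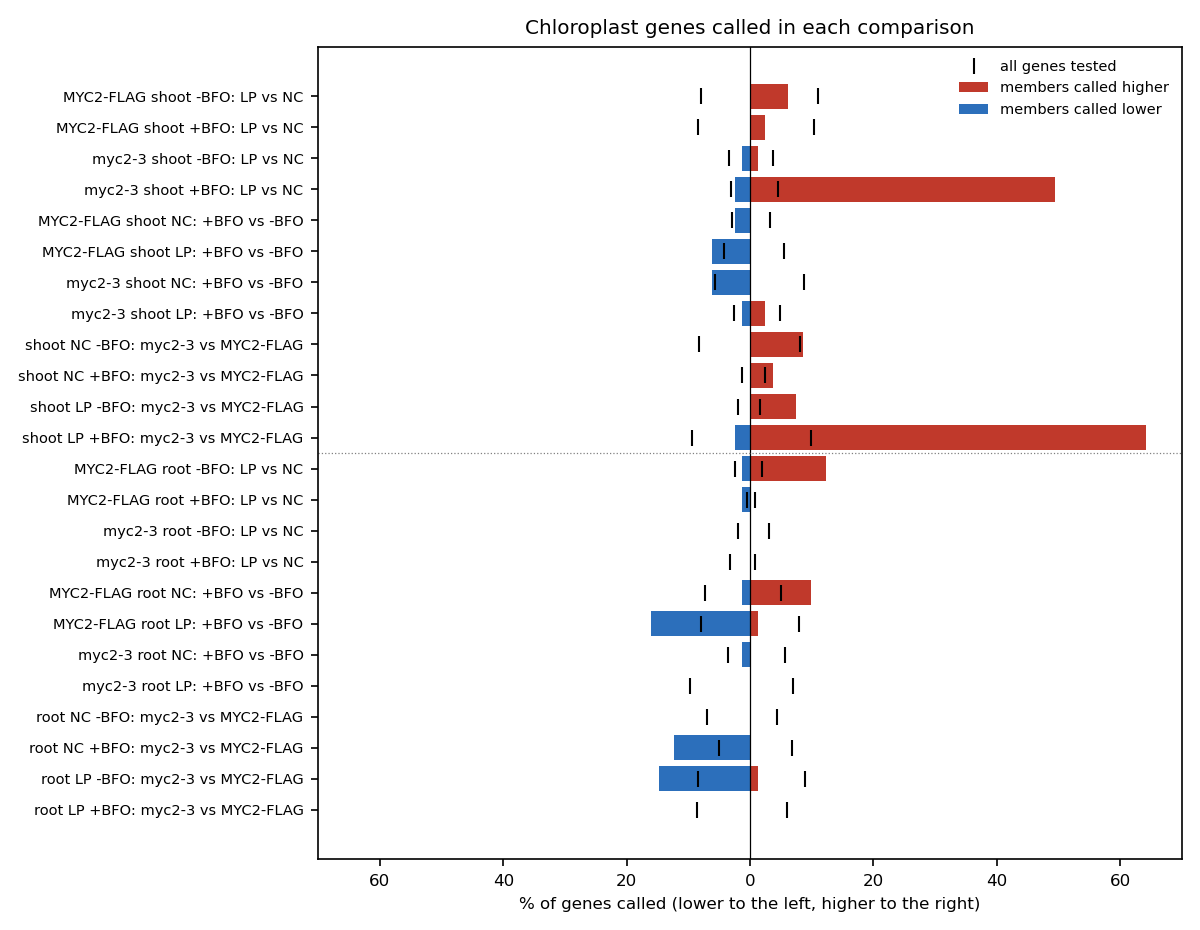
Percent of the 81 chloroplast genes called higher (bars to the right) or lower (bars to the left) in each comparison within a tissue, shoots above and roots below the dotted line; black ticks mark the percent of all 21098 genes called in that direction. The longest bars are those of shoots under LP +BFO, with 52 of 81 members higher in myc2-3 than in MYC2-FLAG and 40 of 81 higher under LP than under NC in myc2-3 with BFO.

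In roots the 3 comparisons with the most members called were those that use MYC2-FLAG under LP -BFO. Against NC -BFO, 10 members rose (2% of all genes did) and 1 fell (2.49%). ATCG00020 had 22.6, 11.5 and 12.2 CPM under LP and 1.66, 1.01 and 0.648 CPM under NC, with no overlap and a log2 fold change of 3.76 ± 0.49 (adjusted p = 1.02e-06). ATCG00490 had 8.51, 4.51 and 4.64 CPM against 1.48, 0.503 and 0.648 CPM, with 2.74 ± 0.47. ATCG00280 had 10.7, 6.10 and 9.18 CPM against 1.75, 1.44 and 2.70 CPM, with 2.17 ± 0.34. These values lie far below those of the same members in shoots of this line, at 35.0 to 96.4, 20.95 to 48.4 and 104 to 247 CPM. The fall was that of ATCG01100, with -1.12 ± 0.34, and the members of the run ATCG00740 to ATCG00820 all had negative values, between -0.77 and -0.40, none of them called. The count of 11 became 7 without NC -BFO replicate 2.

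The same MYC2-FLAG LP -BFO roots entered 2 further comparisons. Against LP +BFO, 13 members were lower with BFO (7.94% of all genes) and 1 higher (8.01%): ATCG00020, at 2.22, 0.469 and 1.37 CPM with BFO, had -3.47 ± 0.49, ATCG00490 had -3.09 ± 0.51 and ATCG00280 had -1.91 ± 0.34, while ATCG01100 had 1.16 ± 0.34. Without LP -BFO replicate 1 it was 12 higher and 10 lower, and without LP +BFO replicate 2 it was 1 higher and 8 lower. The percentages above belong to the fit with all libraries, and the shares of all genes in these refits are not given here. Against myc2-3 under the same label, 12 were lower in myc2-3 (8.48% of all genes) and 1 higher (8.94%): ATCG00020 had -2.89 ± 0.45, ATCG00490 had -2.73 ± 0.47, ATCG00270 had -2.04 ± 0.54 and ATCG01100 had 1.04 ± 0.34. Without MYC2-FLAG replicate 1 it was 13 higher and 10 lower, and without myc2-3 replicate 2 it was 8 lower and none higher. Shares of all genes in these refits are again not given here. These comparisons share the LP -BFO libraries and are no independent evidence of each other. In the libraries themselves, leaf markers took 0.0980%, 0.0798% and 0.0940% of the counts against 0.0253% to 0.0536% in the other MYC2-FLAG roots, 30 of 43 nuclear photosynthesis genes were higher under LP than under NC without BFO (2% of all genes, none lower, median 1.26), mitochondrial genes took 0.887%, 0.740% and 0.761% against 0.141% to 0.436%, and reads with more than 1 alignment came to 5.90%, 5.80% and 5.32% against 1.86% to 4.61%. Their part in these calls was not tested. Over the 48 libraries, the mitochondrial share came mostly from ATMG00020 and ATMG01390, as described above.

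The light response of MYC2-FLAG roots was called as lower with BFO for 15 members and as higher for none (6.7% of all genes changed), with -5.34 ± 0.76 for ATCG00020 (adjusted p = 6.02e-06) and -3.96 ± 0.79 for ATCG00490, and for 8 without LP +BFO replicate 3. The other MYC2-FLAG root comparisons gave 8 members higher (5.01% of all genes) and 1 lower (7.28%) with BFO under NC, and 1 lower (0.45%) and none higher under LP with BFO. Under NC, ATCG00530, the CemA-like gene, had 1.03, 0.974 and 1.93 CPM with BFO and 0.185, 0.575 and 0 CPM without, with a log2 fold change of 2.12 ± 0.66. The count of 9 was 2 without NC -BFO replicate 2 and 4 without NC -BFO replicate 1 or 3 or NC +BFO replicate 1 or 3, and the count of 1, ATCG00500, was 0 without LP +BFO replicate 2 or 3 or NC +BFO replicate 1.

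In myc2-3 roots almost nothing was called. The count was 0 for LP against NC without BFO (5.03% of all genes called) and with BFO (4.04%), where 1 and 2 members had an unadjusted p under 0.05. With BFO against germ-free roots, 1 member was called under NC, ATCG00180, which fell by 1.69 on the log2 scale (3.6% of all genes were lower), and 0 under LP (16.6% of all genes called, 5 members with an unadjusted p under 0.05). The count of 1 was 0 without NC -BFO replicate 1 or NC +BFO replicate 1. The light response did not differ with BFO for any member (12.9% of all genes called, 2 with an unadjusted p under 0.05). DESeq2 and limma-voom called 0 members as well in these comparisons with a count of 0.

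Between the lines in roots, 0 members were called under NC -BFO (11.3% of all genes, 2 members with an unadjusted p under 0.05) and 0 under LP +BFO (14.6% of all genes, 6 members with an unadjusted p under 0.05). DESeq2 called 1 and 2 there, and limma-voom none. Under NC +BFO 10 were lower in myc2-3 (5.1% of all genes were) and none higher. ATCG00180 had 0.0898, 0.454 and 0.509 CPM in myc2-3 and 1.54, 1.33 and 1.14 CPM in MYC2-FLAG, with no overlap and a log2 fold change of -1.90 ± 0.52, ATCG00360 had -2.25 ± 0.66 and the CemA-like gene ATCG00530 had -1.90 ± 0.65. Without MYC2-FLAG replicate 1 or 3 it was 6 or 4, and without myc2-3 replicate 1 or 2 it was 5 or 4. The light response averaged over BFO differed between the lines for 0 members (0.318% of all genes, 3 members with an unadjusted p under 0.05, 0 by DESeq2 and limma-voom), and the BFO response averaged over light for 3 (27.3% of all genes), 1 higher and 2 lower in myc2-3. Where the root labels do not match between the lines, as described above, these values compare labels only.

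The run ATCG00740 to ATCG00820 moved little in roots but in 1 direction at a time. With BFO all 9 of its members had positive log2 fold changes in MYC2-FLAG roots, with a median of 0.20 under NC and 0.77 under LP, and all 9 had negative ones in myc2-3 roots, with medians of -0.36 and -0.49. None of these was called. In MYC2-FLAG shoots under LP, all 9 had negative values with BFO (median -0.82), and 3 were called. Members of a run can be read as parts of shared precursor transcripts and are no independent measurements, and the run was chosen after its values were seen.

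Of the nuclear genes that serve chloroplast transcription and RNA processing, 32 on a list of sigma factors, polymerase-associated proteins and RNA-binding proteins were tested. In shoots under LP +BFO, where 52 chloroplast genes were higher in myc2-3, 9 of the 32 were lower in myc2-3 and none higher (28.1% lower, against 9.39% of all genes, median -0.69). The lines did not match under this label (r = -0.67). Differences between the lines here, also in the light responses that follow, thus compare labels only. The sigma factor SIG5, known for its response to stress and blue light, was 2.63 ± 0.19 lower on the log2 scale, and SIG1, SIG2 and SIG3 were lower by 1.04, 1.07 and 1.26. CSP41A and CSP41B, RNA-binding proteins that protect chloroplast transcripts, were lower by 1.44 and 1.20, and HCF152, a processing factor of a photosystem II gene cluster, by 1.45. For LP against NC in shoots with BFO, SIG5 rose by 3.15 ± 0.19 and SIG1 by 1.58 ± 0.11 in MYC2-FLAG (5 of 32 rose, 15.6% against 10.4% of all genes, and 1 fell, against 8.46% of all genes), and in myc2-3 SIG5 fell by 1.52 and was the only one called (3.1% of all genes fell). In MYC2-FLAG roots under LP -BFO against NC -BFO, CSP41A rose by 2.24 ± 0.35, CSP41B by 1.24 ± 0.27 and HCF107, a factor that stabilises transcripts of the same cluster, by 1.21 ± 0.32, and none fell (2% of all genes rose). Between shoots and roots 31 of 32 were higher in shoots in MYC2-FLAG (21.4% of all genes), and 29 higher and 1 lower in myc2-3 (22.8% and 25.3% of all genes).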

How the data were processed

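RNA was sequenced from shoots and roots of 48 samples, 3 in each of 16 conditions. The authors aligned reads to TAIR10 with TopHat2, counted them on exons by the reverse strand with htseq-count and deposited raw read counts per gene in 1 table for each line, without normalisation. The kind of RNA selection is not given in the sources used here, and chloroplast transcripts mostly lack long poly(A) tails, so a selection step would bear on their shares. The study's methods state that, in a large part of the myc2-3 samples, most reads came from the genome of a latent virus. The methods judge its effect on the plant transcriptome as not significant. They do not say which samples these were and mention none of the other line, so the virus cannot be told apart from the line in comparisons between the lines, and its part in any result was not tested. Of the reads counted, 1.23% to 4.08% per library fell outside genes, 0.451% to 0.900% were ambiguous and 1.46% to 5.90% had more than 1 alignment, and these summary lines were left out of library sizes.

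Counts from both tables were joined by gene. The fit took the 21098 genes whose summed count exceeded 100 and was made in R 4.3.3 with edgeR 4.0.16: TMM normalisation, 1 mean for each of 16 conditions, glmQLFit and glmQLFTest with the quasi-likelihood dispersion of the newer method (legacy = FALSE), and p-values adjusted over all genes with the Benjamini-Hochberg method for each comparison. Standard errors were derived from the F statistic, as the size of the log2 fold change over the root of F. A gene was called at a log2 fold change of at least 1 in size and an adjusted p under 0.05. In 34 comparisons, 8 of them interactions, conditions were compared within tissue and shoots with roots within line. Simulated counts for 1 of them, the lines in shoots under LP +BFO, gave back 92 of 100 genes at a log2 change of 1.5 and 100 of 100 at 2, with 13 false calls among 21098 genes. The simulation gave every gene the same dispersion, changed only genes above a floor of expected counts and held no deviating library. It checks the code and gives no error rates for the real libraries. Shares and composition are percentages of raw counts with no test, and Wilson intervals (95%) and floors of 3 counts cover counting error only. Depth, from 40778 to 161012 member counts per shoot library and from 5333 to 9628 per root library, leaves root values of low members imprecise.

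Alternatives were limma 3.58.1 (voom), DESeq2 1.42.0, its size factors in edgeR, no filter, library sizes without organellar genes, a replicate block, edgeR with its older fitting (chosen after seeing the data) and each library left out. The members and gene lists were chosen with earlier results of these data known. Names were looked up by identifier in the RefSeq gene table of TAIR10.1, which matched 31912 identifiers but pairs none of the ATCG ones; its coordinates and sequences were not used. A planned grouping of members by complex, and shares without rRNA and tRNA or inverted-repeat genes, therefore could not be made. Genes named beside the 5 with a name were, for each kind of comparison and tissue, the 3 largest rises and falls among called members with a mean count of at least 50 in the higher condition, with a few others chosen after their values were seen. Tables and figures were made with Python 3.11.15, pandas 2.3.3, SciPy 1.17.1 and matplotlib 3.10.9.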

Additional observations from a re-analysis of the deposited data

Results flagged for a closer look

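In 6 tests of whether a response differed between conditions or lines, members of the chloroplast set were called. The light response differed with BFO for 6 members in MYC2-FLAG shoots, for 16 in myc2-3 shoots and for 15 in MYC2-FLAG roots. Between the lines, the light response of shoots differed for 14 members. The BFO response differed between the lines for 3 members in shoots, ATCG01090, ATCG00100 and ATCG01000, and for 3 in roots, ATCG00760 with -1.08 ± 0.24, ATCG01070 with -1.58 and ATCG00620 with 2.95. ATCG01070 and ATCG00620 had only 106 and 43 counts over all root libraries together. Their folds rest on a few reads per library and are imprecise. The share of all genes called in the same tests was 17.5%, 6.72%, 6.7%, 18.2%, 9.5% and 27.3%. The share of members called was above that of all genes only for the light response with BFO in myc2-3 shoots and MYC2-FLAG roots. For MYC2-FLAG shoots and for every test between the lines it was below that of all genes. The line coincides with the sequencing project. By the likeness of condition means, the BFO labels of the lines did not match in roots, nor in shoots under LP +BFO (r = -0.67) and NC -BFO (r = -0.33). Differences between the lines cannot be told apart from these.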

How the results depend on the processing

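Across all settings other than leaving out a library, 218 of the values that answer a comparison stayed within 1.5 times the reported count or within 1 SD, and 24 did not. With DESeq2 the number of members called was 5 for LP against NC in MYC2-FLAG shoots with BFO (4 with its size factors in edgeR), 2 in MYC2-FLAG roots with BFO, 1, 15 and 2 for BFO in MYC2-FLAG shoots, MYC2-FLAG roots and myc2-3 roots under NC, 1 and 2 between the lines in roots under NC -BFO and LP +BFO, 8 for the interaction of light and BFO in myc2-3 shoots, 8 for light by line in shoots and 1 for BFO by line in shoots. With limma-voom it was 7 for LP against NC in MYC2-FLAG roots without BFO, 1 for BFO in myc2-3 shoots under LP, 6 between the lines in roots under NC +BFO, 10 for the myc2-3 shoot interaction and 8 for light by line in shoots. The older edgeR fitting, added after seeing the data, gave 1 between the lines in roots under NC -BFO and 10 for the myc2-3 shoot interaction, and with no filter the BFO by line count in roots was 1. The run ATCG00740 to ATCG00820 took 18.9% of the chloroplast counts in shoots with ATCG00470 left out. The cause was not tested in any of these.

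Within a tissue and line, replicate numbers showed no steady pairing, since deviations of same-numbered libraries correlated between -0.308 and 0.454 with means from -0.032 to 0.043. Pairing of shoots with roots of the same number was not examined, and the comparison of shoots with roots treated them as independent. With a replicate block 1 member was called for BFO in myc2-3 shoots under LP, 1 between the lines in shoots under NC +BFO, 1 in roots under LP +BFO and 10 for the myc2-3 shoot interaction, and the other counts stayed within 1.5 times.

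With 1 library left out, the counts for LP against NC ran from 2 to 23 and 1 to 5 in MYC2-FLAG shoots without and with BFO, 2 to 7 and 16 to 48 in myc2-3 shoots, 7 to 10 and 0 to 1 in MYC2-FLAG roots. For BFO they ran from 1 to 3 and 0 to 15 in MYC2-FLAG shoots under NC and LP, 2 to 8 and 0 to 15 in myc2-3 shoots, 2 to 7 and 9 to 22 in MYC2-FLAG roots, and 0 to 1 and 0 to 2 in myc2-3 roots. Between the lines they ran from 5 to 22 and 0 to 2 in shoots under NC -BFO and NC +BFO, and from 0 to 1, 4 to 9 and 8 to 23 in roots under NC -BFO, NC +BFO and LP -BFO. For the interactions they ran from 6 to 22 in myc2-3 shoots, 8 to 17 in MYC2-FLAG roots, 0 to 2 in myc2-3 roots, 6 to 17 for light by line in shoots, and 1 to 9 and 1 to 10 for BFO by line in shoots and roots. ATCG00090 changed sign for BFO in myc2-3 shoots under LP, from 1.71 without LP +BFO replicate 1 to -0.03 (-0.033) without LP +BFO replicate 2. Shoot against root counts stayed between 76 and 77 in MYC2-FLAG and between 78 and 79 in myc2-3. Shares of all genes called with 1 library left out are not given here, so these counts have no such value beside them.

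Root libraries held few member counts, so members at 0 in a condition have no usable fold there, and a p that missed the threshold does not show equal levels. Shares without rRNA, tRNA or inverted-repeat genes were not run, as the identifiers could not be assigned.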

Other observations

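Nuclear genes for chloroplast transcription also changed in comparisons where few chloroplast genes did. SIG5, a sigma factor, fell with BFO in myc2-3 shoots by 1.41 on the log2 scale under NC and by 1.37 under LP, and it rose by 1.64 with BFO in MYC2-FLAG shoots under LP. The labels of the lines did not match in part of the shoot conditions, as described above, so a difference between the lines compares labels only. CP29A, an RNA-binding protein of the chloroplast stroma, rose by 1.39 with BFO in myc2-3 shoots under NC and by 1.02 under LP without BFO in that line, and it fell by 1.1 under LP with BFO in MYC2-FLAG shoots. In MYC2-FLAG roots under LP, CSP41A fell by 1.63 and CSP41B by 1.15 with BFO, beside the fall of 13 chloroplast genes there.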
